A study of Mus musculus with 12 samples.

Results

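Type I interferon-stimulated genes are the set of antiviral and signalling genes that a cell switches on when interferon binds its surface receptor. The 40 genes of this set were listed by symbol, by a rule that uses no measured value. The list was drawn up with earlier results of these data known. Of the 40, 39 had a row in the table of 21956 genes, and Mx2 was not analysed here. RNA was sequenced from hematoma-adjacent brain tissue of 12 mice, 3 in each of 4 groups, to ask how intracerebral hemorrhage (ICH) and loss of Fabp4 from microglia alter gene expression. ICH was produced by collagenase injected into the right striatum, and tissue was taken 48 h later. Sham mice had the operation without collagenase, and their time of collection is not given in the sources used here.

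The groups labelled Sham-Fabp4fl_fl and ICH-Fabp4fl_fl (written Sham fl/fl and ICH fl/fl) carried floxed Fabp4, the gene of fatty acid-binding protein 4. The groups labelled Sham-Fabp4CKO and ICH-Fabp4CKO (written Sham CKO and ICH CKO) carried floxed Fabp4 with a tamoxifen-inducible Cre (CreERT2) driven by Tmem119, a gene of resident microglia, and received tamoxifen before surgery, so deletion is limited to cells that express Tmem119. Whether the fl/fl mice received tamoxifen, and the age of the floxed mice, are not given in the sources used here. Libraries were made from bulk tissue, in which fewer cells of a type and less RNA per cell cannot be told apart. Levels are CPM, the count of a gene divided by the size of its library (after TMM scaling) and multiplied by 1000000. Fold changes are log2 values from the quasi-likelihood test of edgeR, fitted to all genes that passed a filter on low counts, and each adjusted p was corrected over all of them by the Benjamini-Hochberg method.

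Type I interferons signal through a receptor made of IFNAR1 and IFNAR2, which activates the kinases JAK1 and TYK2. A complex that holds IRF9 then enters the nucleus and binds interferon-stimulated response elements in promoters. The products block steps of viral replication, detect foreign or misplaced nucleic acid, and feed back on the pathway. In brain, microglia, endothelial cells, astrocytes, neurons and infiltrating leukocytes can all express such genes, and sterile injury can induce them as infection does.

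Promoter sequence was read from the RefSeq table of build GRCm38.p6, which covers 250 bases before to 50 bases after each annotated start and held 29 of the 40 genes. The motif searched on both strands was GAAANNGAA, the core repeat of an interferon-stimulated response element, with overlapping matches counted separately. It was present in 15 of 29 genes (51.7%, Wilson 95% interval 34.4% to 68.6%), and in 9.76% of the 27025 genes of the same table. With a further A at its end, the motif was present in 13 of 29 genes and in 3.99% of all genes. The 15 genes held 31 matches, and 20 of these began within the 150 bases before the start. A match is a description of letters and does not show that a factor binds there.

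The stretches below are the 200 bases before the start, 5′ to 3′ on the strand of the gene, with matches to the motif in capitals (the reverse complement where the match lies on the other strand). Isg15, at chr4:156200819-156201018 on the minus strand, is shown for its 3 overlapping repeats close to the start. Ifit3, at chr19:34583329-34583528, and Ifit3b, at chr19:34607757-34607956, both on the plus strand, are shown as a near-identical pair. Rsad2, at chr12:26456453-26456652 on the minus strand, and Cmpk2, at chr12:26469015-26469214 on the plus strand, are neighbours of which 1 passed the test after ICH and the other did not. Bst2, at chr8:71537473-71537672 on the minus strand, and Lgals3bp, at chr11:118401960-118402159 on the minus strand, are shown because they had the smallest p between the sham groups.
Isg15: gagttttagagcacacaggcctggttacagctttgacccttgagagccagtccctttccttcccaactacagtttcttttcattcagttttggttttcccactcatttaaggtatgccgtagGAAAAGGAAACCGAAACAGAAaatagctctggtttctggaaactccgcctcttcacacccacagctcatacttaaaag
Ifit3: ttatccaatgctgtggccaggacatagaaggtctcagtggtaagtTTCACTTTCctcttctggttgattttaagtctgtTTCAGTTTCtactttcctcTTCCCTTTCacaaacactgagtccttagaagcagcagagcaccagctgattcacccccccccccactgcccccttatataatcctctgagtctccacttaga
Ifit3b: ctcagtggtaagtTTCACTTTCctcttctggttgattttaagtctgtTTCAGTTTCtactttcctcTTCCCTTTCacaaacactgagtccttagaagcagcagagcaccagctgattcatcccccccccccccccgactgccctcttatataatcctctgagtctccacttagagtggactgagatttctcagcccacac
Rsad2: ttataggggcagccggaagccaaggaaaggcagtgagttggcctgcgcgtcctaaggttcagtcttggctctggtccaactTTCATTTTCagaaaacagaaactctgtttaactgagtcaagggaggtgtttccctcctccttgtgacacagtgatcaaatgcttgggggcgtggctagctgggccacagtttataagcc
Cmpk2: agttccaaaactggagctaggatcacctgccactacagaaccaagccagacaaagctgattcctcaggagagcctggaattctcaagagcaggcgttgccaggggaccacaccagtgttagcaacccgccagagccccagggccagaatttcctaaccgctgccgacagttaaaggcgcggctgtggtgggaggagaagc
Bst2: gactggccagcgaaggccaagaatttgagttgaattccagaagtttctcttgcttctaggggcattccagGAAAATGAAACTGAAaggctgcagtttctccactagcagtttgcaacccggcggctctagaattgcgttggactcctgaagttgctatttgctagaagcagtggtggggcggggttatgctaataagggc
Lgals3bp: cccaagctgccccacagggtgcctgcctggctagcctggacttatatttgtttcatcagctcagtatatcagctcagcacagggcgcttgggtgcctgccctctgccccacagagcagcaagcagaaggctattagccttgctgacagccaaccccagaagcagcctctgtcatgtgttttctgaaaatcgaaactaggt

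The windows of Ifit3 and Ifit3b overlapped over 274 aligned columns, of which 258 were identical (94.2%), after a shift of 32 bases between their annotated starts. Each of the pair held 3 matches, all on the opposite strand. Rsad2 held 1 match, whereas Cmpk2, whose start lies 12763 bases away and which is read in the other direction, held none. Lgals3bp held none either, and Bst2 held 2 that overlap. Ifi44, which is named below for its difference between genotypes, held 1 match that spans its start. Ifitm3, Eif2ak2 and Samd9l held matches only after the start, within the transcribed part of the window.

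**Figure D1:**
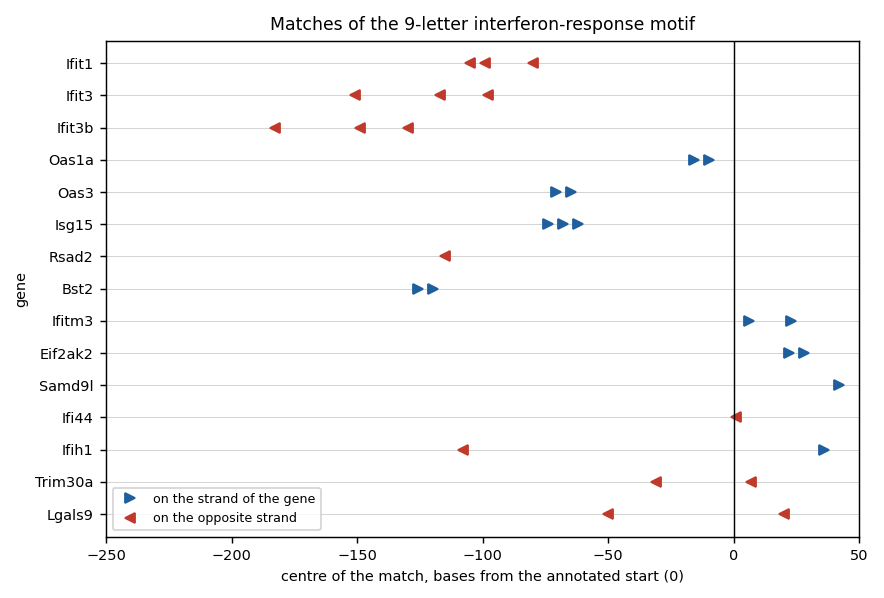
Position of each match to the 9-letter motif in the promoter windows of the 15 genes that hold it. The x axis gives the centre of the match in bases from the annotated start, from 250 before to 50 after, and triangles point along the strand of the match. Of the 31 matches, 20 began within the 150 bases before the start.

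Totals ranged from 15650813 to 22406216 counts per library. Fabp4 served as the check of the knockout, read in bulk tissue, where deletion and fewer cells that express it cannot be told apart. Its CPM was 0.0964, 0.0548 and 0.103 in Sham fl/fl (1 or 2 reads each) and 0 in all 3 Sham CKO libraries, a count that allows up to 0.134 to 0.139 CPM, so no fold is given there. After ICH it was 3.24, 3.93 and 1.28 in fl/fl and 0.323, 0.16 and 0.547 in CKO, without overlap (log2 difference -2.94, SE 0.63, adjusted p = 0.321, edgeR). Several libraries stood apart from the rest. Sham fl/fl mice 1 and 2 had low levels of Drd1, a striatal receptor gene (52.5 and 64.7 CPM against 118 to 195 in the other 4 sham libraries) and high levels of myelin genes. ICH fl/fl mouse 1 had 16.3% mitochondrial reads against at most 11.9% elsewhere, and the ICH genotypes did not overlap in this share (10.4% to 16.3% in fl/fl, 7.9% to 9.5% in CKO). The library labelled ICH CKO mouse 1 had 1 read on 4 Y-linked genes against 1302 to 2251 in the others. ICH CKO mouse 2 had the most Syt1, a neuronal vesicle gene, of the 6 ICH libraries (979 CPM against 202 to 616). Counts of genes, and the values of named genes that these libraries move most, are given with and without them.

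Nearly the whole set rose after ICH. In fl/fl mice, 38 of 39 genes were higher after ICH than in sham at an adjusted p under 0.05 (edgeR), where 26.2% of all 14719 genes tested were higher by the same rule. In all 38 the ICH libraries lay above the sham libraries without overlap, a separation found in the same direction for 34.4% of all genes. The median log2 fold change of the 39 genes was 3.27, against 0.02 over all genes, and the adjusted p of the 38 ran from 0.000275 to 0.00438. Their reads made up 0.018% to 0.0336% of the counts in Sham fl/fl libraries and 0.142% to 0.21% in ICH fl/fl libraries. In CKO mice, 38 of 39 genes were likewise higher (23.7% of 14737 genes), all 38 without overlap (33.2%), with a median of 3.65 against 0.01 over all genes. The gene that did not pass was the same in both genotypes, Cmpk2. The 2 comparisons share no library.

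The count in fl/fl mice was again 38 when any single library was left out, and also when both Sham fl/fl libraries low in striatal genes were left out together, a fit in which the sham arm is 1 library assumed to vary like the ICH group. In CKO mice it fell to 0 when Sham CKO mouse 1, 2 or 3 was left out. The 38 genes then had adjusted p from 0.051 to 0.0614 in the edgeR test, no gene of the table passed, and all 38 stayed under an unadjusted p of 0.05. Leaving out any of the ICH CKO libraries gave 38.

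**Figure D2:**
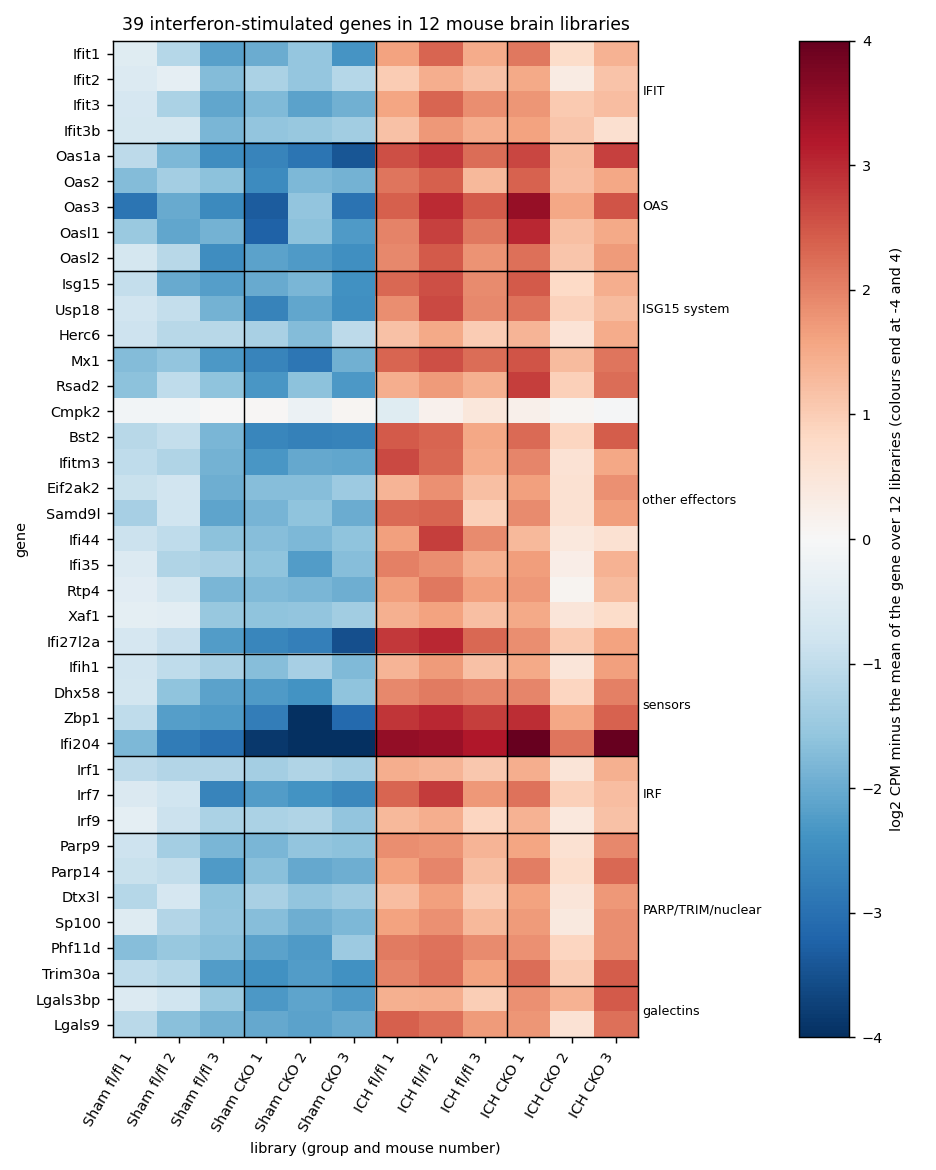
Heat map of the 39 genes (rows, by role) in the 12 libraries (columns, by group). Colour is log2 CPM minus the gene's mean over the 12 libraries, red above and blue below. The ICH columns are red and the sham columns blue except for Cmpk2. The mean log2 CPM of the column is 2.20 and 1.97 in the paler Sham fl/fl mice 1 and 2 against 1.11 to 1.30 in the other sham libraries, and 3.99 in ICH CKO mouse 2 against 4.76 to 5.31 in the other ICH libraries.

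Markers of other cells moved with this response. The summed level of 8 monocyte and macrophage markers, among them Ccr2 and Ly6c2, was 50.1 to 74.5 CPM in the 6 sham libraries and 421 to 3012 CPM in the 6 ICH libraries, and all 8 rose in both genotypes. Ccr2 was 0 to 0.675 CPM in sham and 9.78 to 47.5 CPM after ICH. The 8 microglial markers summed to 434 to 526 CPM in sham and 1657 to 4722 CPM after ICH, and 7 of 8 rose in each genotype. The 6 plasmacytoid dendritic cell markers, of cells known to make much interferon, summed to 87.8 to 130 CPM in sham and 140 to 172 CPM after ICH, nearly all of it from Tcf4, which other cells express too. Of these markers, Cd300c was at 0 in all ICH libraries and Klk1 in all but 1. Of those with enough reads to be tested, 0 of 2 rose in fl/fl and 2 of 3 in CKO mice (edgeR). With DESeq2, 1 of the 2 fell in fl/fl and 2 of 3 rose in CKO mice. The largest log2 fold change in CKO mice was 6.87 (edgeR), on a list of which 2 or 3 markers were at 0 in each Sham CKO library. The 8 endothelial markers summed to 216 to 230 CPM in sham and 268 to 1187 CPM after ICH, and 8 of 8 rose in fl/fl and 4 of 8 in CKO mice. Of the neutrophil markers tested, 5 of 6 rose in fl/fl and 6 of 7 in CKO, and of the T and NK cell markers, 6 of 7 and 2 of 3. The sums of the 8 T and NK cell markers overlapped between sham and ICH. They were 16.2 to 45.8 CPM in Sham fl/fl and 19.7 to 62.9 CPM in ICH fl/fl, and 28.6 to 57.8 CPM in Sham CKO and 26.2 to 37.1 CPM in ICH CKO. All 5 neuronal markers were lower after ICH without overlap in both genotypes, with median log2 fold changes of -1.17 in fl/fl and -1.13 in CKO. At an adjusted p under 0.05, 4 fell in fl/fl and 1 in CKO mice with edgeR, and 5 in each with DESeq2. The part of these cells in the rise of the interferon-stimulated genes was not tested.

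The IFIT proteins bind viral RNA and hinder its translation, and all 4 genes rose in both genotypes. Ifit3, the most abundant, had 17.4, 11.6 and 6.61 CPM in Sham fl/fl and 8.14, 6.27 and 7.31 CPM in Sham CKO. After ICH it had 84.5, 141 and 102 CPM in fl/fl and 95.3, 58.5 and 66.1 CPM in CKO. No ICH library came near the sham range, and ICH fl/fl mouse 2 was the highest. The log2 fold change of Ifit3 was 3.16 (SE 0.38, adjusted p = 0.00103, edgeR) in fl/fl and 3.34 (SE 0.24, adjusted p = 0.00584, edgeR) in CKO mice, and in CKO mice it had the smallest p of the set. The other 3 genes of the group rose by 1.98 to 2.94 in fl/fl and by 2.40 to 3.50 in CKO. Ifit3 and Ifit3b had counts that were not whole in all 12 libraries, as reads shared between the pair would give, so the split between them is uncertain.

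OAS enzymes make an oligoadenylate messenger that activates RNase L, which cuts RNA. All 5 genes rose in both genotypes, with a median log2 fold change of 4.25 in fl/fl and 4.71 in CKO. Oasl2, an OAS-like gene and the most abundant of the 5, had 12, 9.09 and 3.41 CPM in Sham fl/fl, 4.35, 3.99 and 3.54 CPM in Sham CKO, 75.6, 108 and 69.2 CPM in ICH fl/fl and 90.6, 43.1 and 64.1 CPM in ICH CKO. Sham fl/fl mouse 3 lay below every Sham CKO library while mice 1 and 2 lay above them. Its log2 fold change was 3.33 (SE 0.44, adjusted p = 0.00149, edgeR) in fl/fl and 4.06 (SE 0.32, adjusted p = 0.00584, edgeR) in CKO. Oas3 had the lowest level per exon length in both sham groups (2, 5 and 3 reads in Sham fl/fl, and 1, 9 and 2 in Sham CKO), so its log2 fold changes of 5.68 and 5.73 rest on few sham reads. Oas1a was not whole in 9 of 12 libraries, and mice carry several close copies of this gene.

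Isg15 encodes a ubiquitin-like protein that is joined to other proteins, Herc6 its ligase in mouse, and Usp18 the protease that removes it and also dampens the interferon receptor. All 3 rose in both genotypes. Isg15 had 3.23, 1.48 and 1.29 CPM in Sham fl/fl, 1.48, 1.7 and 1.1 CPM in Sham CKO, 31.8, 38.1 and 23.9 CPM in ICH fl/fl and 35.6, 11.2 and 17.4 CPM in ICH CKO. Its sham groups overlapped and its ICH groups overlapped. The log2 fold change was nearly equal, at 3.91 (SE 0.38) in fl/fl and 3.90 (SE 0.50) in CKO mice. Usp18 had 3.04, 2.68 and 1.34 CPM in Sham fl/fl and 0.74, 1.16 and 0.874 CPM in Sham CKO, without overlap, and then 19.4, 33 and 20.2 CPM in ICH fl/fl and 24.2, 10 and 12.7 CPM in ICH CKO.

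The 12 other antiviral effectors with a row include Mx1, a GTPase that many laboratory strains carry in a non-functional form, Bst2 (tetherin, which holds budding virus at the membrane), Eif2ak2 (the kinase PKR, which stops translation on sensing double-stranded RNA) and Rsad2 (viperin). Of the 12, 11 rose in each genotype. Ifitm3, a membrane protein that hinders viral entry through endosomes, had the highest level per exon length of all members in ICH fl/fl (223 ± 83.1 CPM per kb of exon, SD, n = 3) and lay close to Lgals3bp in ICH CKO (133 ± 57.6 and 138 ± 50.9 CPM per kb). Its level was 16.1, 14 and 8.73 CPM in Sham fl/fl, 6.38, 7.7 and 7.59 CPM in Sham CKO, 204, 159 and 91.6 CPM in ICH fl/fl and 126, 48.7 and 95.4 CPM in ICH CKO. The sham groups of Ifitm3 were apart and the ICH groups overlapped. Mx1 rose by a log2 value of 4.50 in fl/fl and 4.98 in CKO mice.

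Rsad2 and Cmpk2 are neighbours, and Cmpk2 encodes a mitochondrial nucleotide kinase. Rsad2 had 2.22, 3.45 and 2.27 CPM in Sham fl/fl, 1.34, 2.19 and 1.38 CPM in Sham CKO, 19.8, 23.4 and 19.5 CPM in ICH fl/fl and 48.6, 14 and 33.8 CPM in ICH CKO. Cmpk2 had 29, 29 and 31.1 CPM in Sham fl/fl, 32.2, 26.6 and 33.1 CPM in Sham CKO, 22.2, 35.2 and 43.3 CPM in ICH fl/fl and 36.3, 32.9 and 30.4 CPM in ICH CKO. All 4 groups of Cmpk2 overlapped. Its log2 fold change after ICH was 0.15 (95% interval -0.44 to 0.73, adjusted p = 0.651, edgeR) in fl/fl and 0.12 (-0.22 to 0.46, adjusted p = 0.504, edgeR) in CKO mice. The upper limits lay below the smallest rise of any other member, 1.98 in fl/fl and 2.40 in CKO. In sham brain Cmpk2 came next after Lgals3bp and Ifitm3 per exon length, at 7.14 ± 0.287 CPM per kb in fl/fl and 7.35 ± 0.848 CPM per kb in CKO (SD, n = 3).

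The nucleic acid sensors held the largest fold change of the 39 genes in either genotype. Ifih1 and Dhx58 encode cytosolic receptors for viral RNA, Zbp1 a sensor of left-handed nucleic acid, and Ifi204 a DNA-binding protein of the PYHIN family, and all 4 rose in both genotypes. Ifi204 had 1.3, 0.603 and 0.516 CPM in Sham fl/fl, 0.231, 0.179 and 0.046 CPM in Sham CKO, 56.5, 53.4 and 44.9 CPM in ICH fl/fl and 82.8, 21.6 and 86.7 CPM in ICH CKO. Its log2 fold change was 5.93 (SE 0.33, adjusted p = 0.000275, edgeR) in fl/fl, the smallest p of the set there. In CKO mice it was 8.65 (SE 0.83, adjusted p = 0.00584, edgeR), a value that rests on 5, 4 and 1 sham reads and depends on the prior count. Counts of Ifi204 were not whole in 10 of 12 libraries, and it belongs to a cluster of close copies, so its level is uncertain. Zbp1 had 1.49, 0.603 and 0.568 CPM in Sham fl/fl, 0.37, 0.0896 and 0.276 CPM in Sham CKO, 23.4, 26.1 and 21.9 CPM in ICH fl/fl and 25, 9.38 and 16.7 CPM in ICH CKO.

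Irf7, which drives the amplifying wave of interferon genes, Irf9, the DNA-binding part of the complex that acts downstream of the receptor, and Irf1 rose in both genotypes. Irf7 had 11.7, 10 and 2.69 CPM in Sham fl/fl, 3.61, 3.27 and 2.8 CPM in Sham CKO, 87, 121 and 58.1 CPM in ICH fl/fl and 79.2, 33.6 and 41.5 CPM in ICH CKO. Sham fl/fl mouse 3 was the lowest of the 6 sham libraries, mice 1 and 2 the highest. The log2 fold change of Irf7 was 3.41 (SE 0.53, adjusted p = 0.0029, edgeR) in fl/fl and 3.99 (SE 0.38, adjusted p = 0.00584, edgeR) in CKO mice. Irf1 showed a smaller and tighter rise of 2.41 (SE 0.16, adjusted p = 0.000301, edgeR) in fl/fl and 2.51 (SE 0.28, adjusted p = 0.00662, edgeR) in CKO mice.

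Parp9 and Dtx3l encode partners in a ubiquitin ligase complex, Parp14 an ADP-ribosyltransferase, Sp100 a nuclear body protein, Trim30a a TRIM-family regulator, and Phf11d is a further interferon-inducible gene. All 6 rose in both genotypes, with a median log2 fold change of 2.89 in fl/fl and 3.48 in CKO mice. Parp14 had 7.52, 7.07 and 2.84 CPM in Sham fl/fl, 4.3, 3.31 and 3.49 CPM in Sham CKO, 42.4, 54.1 and 32.2 CPM in ICH fl/fl and 58.1, 22.8 and 69.1 CPM in ICH CKO. Phf11d had 0.916, 1.04 and 0.93 CPM in Sham fl/fl, 0.647, 0.582 and 1.1 CPM in Sham CKO, 13.9, 14.7 and 12.2 CPM in ICH fl/fl and 11.6, 5.86 and 11.9 CPM in ICH CKO. The ICH libraries of Phf11d did not overlap between genotypes, and its log2 fold change in fl/fl mice was 3.77 (SE 0.21, adjusted p = 0.000282, edgeR). Parp9 and Dtx3l share 458 bases of exon on opposite strands in the GENCODE annotation of mouse, and whether counting used strand is not stated, so reads there cannot be assigned with certainty. Trim30a and Phf11d, which have close copies, were each not whole in 6 of 12 libraries.

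Lgals9 encodes galectin-9 and Lgals3bp a secreted glycoprotein that binds galectins, and both rose in both genotypes. Lgals3bp had 69.5, 57.9 and 36 CPM in Sham fl/fl, 20.4, 23.2 and 21 CPM in Sham CKO, 269, 275 and 202 CPM in ICH fl/fl and 362, 267 and 552 CPM in ICH CKO. CKO libraries were thus the 3 lowest of the sham mice, and after ICH 2 of them were the highest. The log2 fold change was 2.15 (SE 0.27, adjusted p = 0.00112, edgeR) in fl/fl and 4.20 (SE 0.32, adjusted p = 0.00584, edgeR) in CKO mice. Lgals9 rose by 3.60 in fl/fl and 3.75 in CKO mice.

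**Figure D3:**
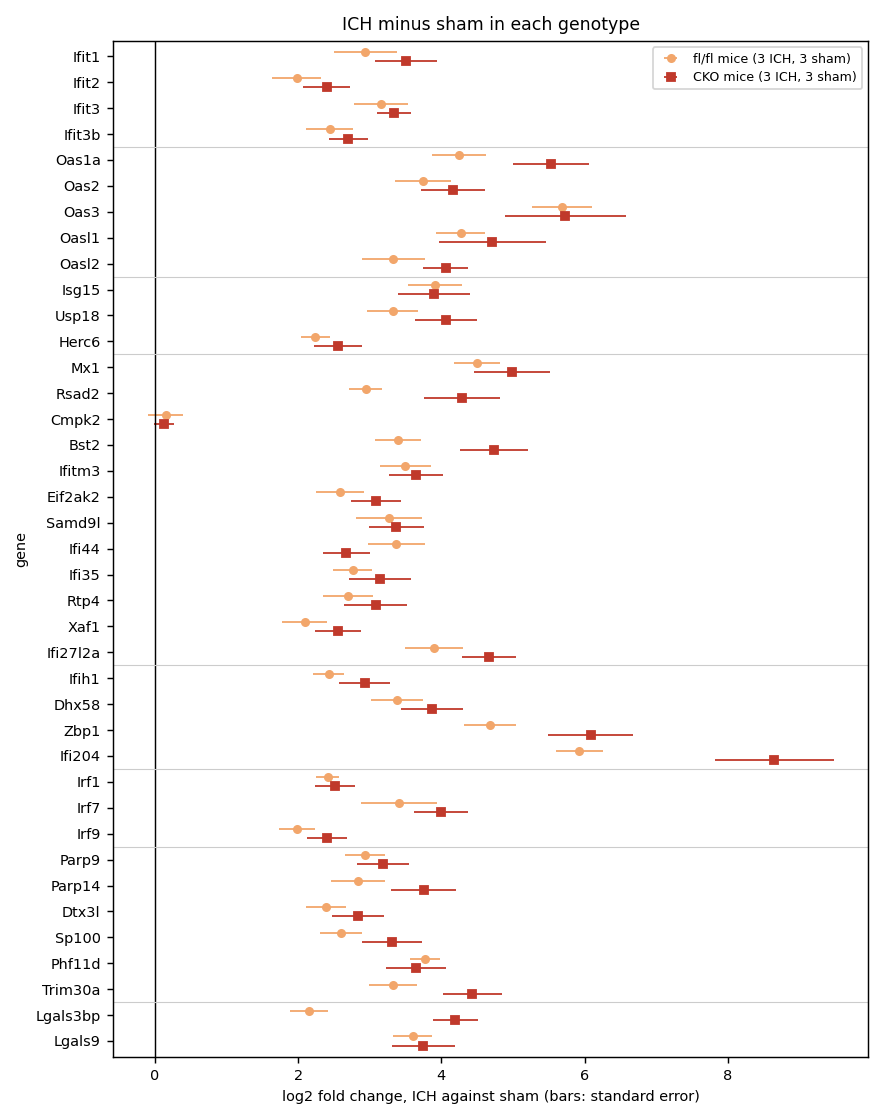
Log2 fold change of ICH against sham (x axis) for each of the 39 genes (y axis, by role), in fl/fl mice (circles) and CKO mice (squares), 3 ICH and 3 sham libraries each. Bars are standard errors. All values lie above 0, from 0.15 (Cmpk2) to 5.93 (Ifi204) in fl/fl and from 0.12 (Cmpk2) to 8.65 (Ifi204) in CKO mice.

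Loss of microglial Fabp4 gave no gene of the set past the threshold after ICH. Comparing ICH CKO with ICH fl/fl, 0 of 39 genes had an adjusted p under 0.05 (edgeR, smallest 0.324), and 0 of all 14600 genes did. At an unadjusted p under 0.05, 2 genes were lower in CKO and 0 higher, where 5.68% of all genes were lower and 6.09% higher by this rule. The libraries of 3 genes were lower in CKO without overlap (Ifi27l2a, Ifi44 and Phf11d), against 11.5% of all genes. Of the 39 values, 30 lay below 0 and 9 above (31 or 32 below under other scalings), with a median of -0.16 against 0.06 over all genes. With DESeq2, 1 gene of the set was lower at an adjusted p under 0.05, Ifi27l2a (adjusted p = 0.0111), where 2.21% of all genes were. At an unadjusted p under 0.05 in DESeq2, 2 were lower and 1 higher, where 2348 of all 14600 genes passed in either direction.

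Ifi27l2a, a small interferon-induced protein, had 34.8, 39.3 and 23.9 CPM in ICH fl/fl and 17.4, 9.97 and 14.9 CPM in ICH CKO. Its sham values were 2.94, 2.46 and 0.93 CPM in fl/fl and 0.694, 0.627 and 0.322 CPM in CKO. In both settings each CKO library lay below each fl/fl library. The log2 difference after ICH was -1.16 (SE 0.28, unadjusted p = 0.00527, adjusted p = 0.324, edgeR). Ifi44, a gene of unsettled function, had 8.8, 19.5 and 10.6 CPM in ICH fl/fl and 6.92, 3.73 and 4.32 CPM in ICH CKO, with a log2 difference of -1.32 (SE 0.40, unadjusted p = 0.0151, adjusted p = 0.361, edgeR). Next by p below 0 was Ifit3 at -0.52 (SE 0.28, adjusted p = 0.508, edgeR), which ran from -0.76 without ICH CKO mouse 1 to -0.30 without ICH fl/fl mouse 2.

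Above 0 the smallest p belonged to Lgals3bp at 0.72 (SE 0.31, adjusted p = 0.433, edgeR), Rsad2 at 0.67 (SE 0.43, adjusted p = 0.57, edgeR) and Ifi204 at 0.36 (SE 0.49, adjusted p = 0.8, edgeR). These values moved with single libraries. Rsad2 was at 0.25 without ICH CKO mouse 1 and at 1.03 without ICH CKO mouse 2, Ifi204 at 0.07 without ICH CKO mouse 3 and at 0.77 without ICH CKO mouse 2, and Lgals3bp at 0.40 without ICH CKO mouse 3 and at 0.94 without ICH CKO mouse 2. Parp14, Oas3, Dtx3l, Trim30a, Cmpk2 and Eif2ak2 were the others above 0, at 0.01 to 0.28. The 95% intervals of 37 of 39 genes held 0. The 39 intervals had a median width of 1.79 on the log2 scale, and 24 of them reached a lower limit of -1 or less. For Isg15 the difference was -0.49 with an interval of -1.53 to 0.56, and for Herc6, the value nearest 0, the interval ran from -0.70 to 0.70. Differences inside these intervals were not detectable with 3 mice in each group.

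The ICH libraries within a genotype lay far apart. The mean log2 CPM over the 39 genes was 5.01, 5.31 and 4.76 in ICH fl/fl and 5.17, 3.99 and 4.88 in ICH CKO. ICH CKO mouse 2 had the lowest value of the 6 ICH libraries for 36 of 39 genes, and ICH fl/fl mouse 2 the highest for 22. Without ICH CKO mouse 2, 16 of 39 genes lay below 0 and 23 above, with a median of 0.06, so the side on which most of the set lay turned. At an unadjusted p under 0.05, 4 genes were then higher in CKO and 2 lower, in a fit where 2999 of all 14738 genes passed in either direction. Without ICH CKO mouse 1, 35 lay below 0, the median was -0.48, and 9 genes were lower at an unadjusted p under 0.05, where 1075 of all 14832 genes passed in either direction. Without ICH fl/fl mouse 2, 21 lay below 0 and 1 was lower at that p, where 1038 of all 14836 genes passed in either direction. In none of these fits did a gene of the set pass after adjustment (edgeR).

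Levels of other cells' markers differed between the ICH libraries, and some lay apart between the genotypes without overlap. The monocyte and macrophage sums overlapped, at 421 to 3012 CPM in ICH CKO and 571 to 2264 CPM in ICH fl/fl. ICH CKO mouse 2, lowest in interferon-stimulated genes, was also lowest of the ICH CKO libraries in 8 summed monocyte and macrophage markers (421 CPM, against up to 3012 CPM) and highest of the 6 ICH libraries in 5 neuronal markers (2478 CPM). None of the endothelial or myelin markers passed the adjusted threshold in edgeR, and 4 of each list did in DESeq2. The libraries of all 8 endothelial markers lay lower in ICH CKO without overlap, with sums of 268 to 396 CPM against 515 to 1187 CPM in ICH fl/fl. Those of all 5 myelin genes did as well, with sums of 5861 to 9854 CPM against 15354 to 22639 CPM. Of 8 T and NK cell markers, 7 lay below 0 in CKO, 5 of them without overlap, and 0 passed the adjusted threshold in edgeR and 2 in DESeq2. The 9 neutrophil markers summed to 73.6 to 331 CPM in ICH CKO and 53.5 to 96.3 CPM in ICH fl/fl. Of the 7 tested, 7 lay above 0 in CKO, 1 without overlap, and 0 passed the adjusted threshold in edgeR and 4 in DESeq2. The 8 microglial markers summed to 1827 to 4722 CPM in ICH CKO and 1657 to 1849 CPM in ICH fl/fl. Of these, 6 lay above 0 and 2 below, and 0 passed the adjusted threshold in edgeR or DESeq2. What part these had in the values of the interferon-stimulated genes was not tested.

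In sham mice most values of the set lay lower in CKO than in fl/fl, by an amount that depended on which Sham fl/fl libraries were included. Of 37 genes tested (Oas3 and Mx1 had too few reads), 36 lay below 0, with a median log2 difference of -0.68 against 0.00 over all 14395 genes. None passed the adjusted threshold in edgeR (smallest adjusted p 0.169), and 8 of all genes did. At an unadjusted p under 0.05, 18 were lower and 0 higher, against 5.77% of all genes that were lower, and 15 were lower without overlap, against 8.86%. With DESeq2, Lgals3bp, Bst2 and Ifi27l2a were lower at an adjusted p under 0.05 (0.966% of all genes were). At an unadjusted p under 0.05 in DESeq2, 19 were lower, where 1446 of all 14395 genes passed in either direction.

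Bst2 had 4.82, 5.31 and 2.84 CPM in Sham fl/fl and 1.62, 1.52 and 1.56 CPM in Sham CKO. Its log2 difference was -1.45 (SE 0.28, adjusted p = 0.23, edgeR). For Lgals3bp, whose sham values are given above, the difference was -1.33 (SE 0.22, adjusted p = 0.169, edgeR), and for Ifi27l2a it was -1.92 (SE 0.50, adjusted p = 0.394, edgeR). Cmpk2 was the gene above 0, at 0.05 (SE 0.11, adjusted p = 0.845, edgeR). In all 3 of the named lower genes, Sham fl/fl mouse 3 lay between mice 1 and 2 of its group and the CKO libraries.

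The 3 Sham CKO libraries were alike and the 3 Sham fl/fl libraries were not. Mean log2 CPM over the set was 1.11, 1.16 and 1.11 in Sham CKO and 2.20, 1.97 and 1.30 in Sham fl/fl. Sham fl/fl mouse 3 was the lowest of its group for 32 of 39 genes, and mouse 1 was the highest of all 6 sham libraries for 28. Mice 1 and 2 are the libraries low in striatal and high in myelin genes. The 5 striatal projection neuron markers summed to 788, 879 and 2482 CPM in Sham fl/fl mice 1 to 3 and 1631 to 2959 CPM in Sham CKO, and the 5 myelin genes to 12117, 12682 and 7158 CPM and 8564 to 9465 CPM. With both left out, which leaves 1 Sham fl/fl library, 24 of 37 genes lay below 0 and the median log2 difference was -0.11. In that fit Lgals3bp was at -0.74, Bst2 at -0.85 and Ifi27l2a at -0.76. Without mouse 1, 6 genes were lower at an unadjusted p under 0.05, where 778 of all 14525 genes passed in either direction. Without mouse 3, 23 genes passed the adjusted threshold and 30 the unadjusted one (edgeR), in a fit where 2892 of all 14602 genes passed in either direction. Without Sham fl/fl mouse 2 or any single Sham CKO library, 10 or 11 genes passed the unadjusted threshold and 0 the adjusted one. In those fits 738 to 1143 of all genes passed the unadjusted threshold in either direction. The 8 monocyte and macrophage markers also summed lower in Sham CKO (50.1, 51.4 and 55.1 CPM) than in Sham fl/fl (74.5, 55.9 and 63.9 CPM), though only 2 of them had enough reads to be tested and neither passed. The 5 erythroid markers lay below 0 in CKO with a median of -1.16, and none passed (edgeR and DESeq2), with sums of 39.3, 17.1 and 124 CPM in Sham CKO and 122 to 167 CPM in Sham fl/fl. The part of tissue composition and blood cells in this difference was not tested.

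**Figure D4:**
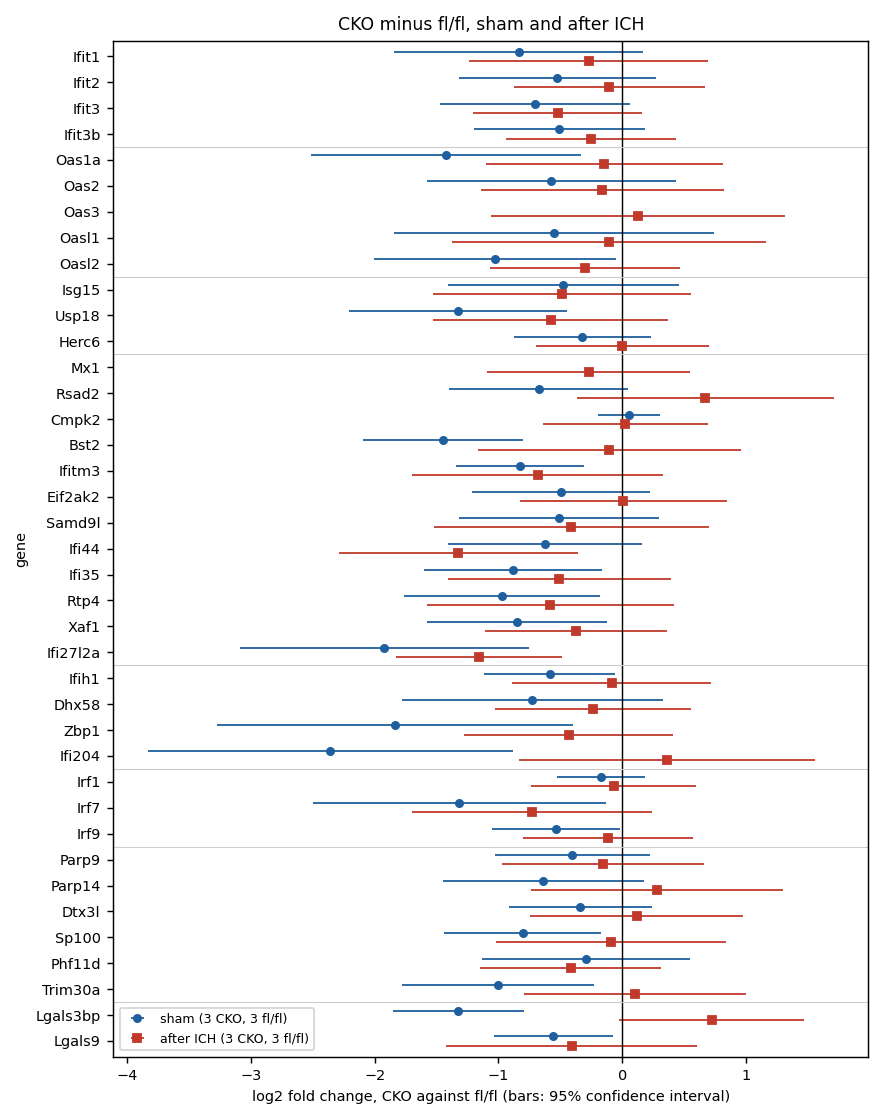
Log2 difference of CKO against fl/fl (x axis) for each gene (y axis, by role) in sham mice (circles, 37 genes) and after ICH (squares, 39 genes), 3 libraries a group. Bars are 95% confidence intervals. In sham mice 36 of 37 values lie below 0, and after ICH 30 of 39 do, with the intervals of 37 holding 0.

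Whether the response to ICH differed between genotypes was tested as an interaction over all 12 libraries. No gene of the set passed the adjusted threshold (edgeR, smallest adjusted p 0.187). At an unadjusted p under 0.05, 4 genes had a larger response in CKO, against 5.51% of all genes, and 0 a smaller one. These were Lgals3bp at 2.00 (SE 0.41, adjusted p = 0.187, edgeR), Ifi204 at 2.68 (SE 0.94, adjusted p = 0.4), Rsad2 at 1.30 (SE 0.56, adjusted p = 0.484) and Bst2 at 1.29 (SE 0.57, adjusted p = 0.5). With DESeq2, Lgals3bp passed at an adjusted p of 0.000947, where 1.21% of all genes did in that direction. Of the 39 values 35 lay above 0 (36 with RLE scaling), with a median of 0.41 against 0.03 over all genes. Those below 0 were Ifi44 at -0.74 (SE 0.53, adjusted p = 0.685), Phf11d at -0.17 (SE 0.45), Cmpk2 at -0.06 (SE 0.29) and Isg15 at -0.06 (SE 0.66).

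The same libraries set these values. With Sham fl/fl mice 1 and 2 left out, which leaves 1 library in that group, 14 of 39 genes lay above 0 and the median was -0.15. The value of Lgals3bp was then 1.42. Without ICH CKO mouse 2, Lgals3bp, Ifi204 and Rsad2 passed the adjusted threshold (edgeR, adjusted p = 0.0254, 0.0287 and 0.0453), and 10 genes passed the unadjusted one, in a fit where 345 of all 15300 genes passed the adjusted and 3186 the unadjusted threshold in either direction. Without Sham fl/fl mouse 3, 8 passed the unadjusted threshold, where 1574 of all 15298 genes did in either direction. Without any other single library 2 or 3 passed it, where 1082 to 1713 of all genes did in either direction. The interaction shares its libraries with each of the comparisons above and is not independent of them.

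**Figure D5:**
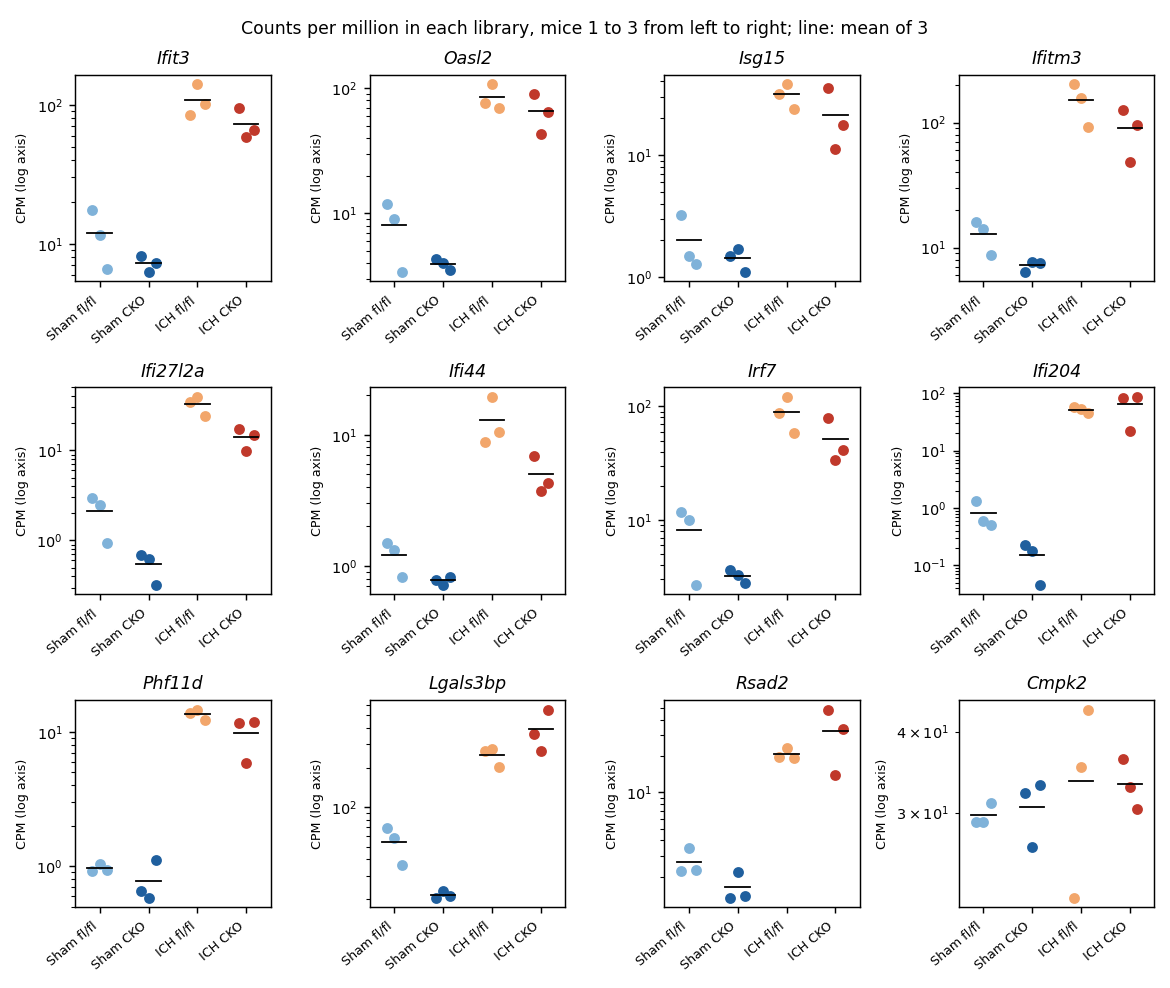
CPM (log axis) of 12 genes in each library of the 4 groups, with mice 1 to 3 from left to right and a line at the mean of 3. Cmpk2 lies between 22.2 and 43.3 CPM in every library, Ifi27l2a and Ifi44 are lower in ICH CKO than in ICH fl/fl without overlap, and Lgals3bp is lowest in Sham CKO (20.4 to 23.2 CPM) and has its highest mean in ICH CKO.

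The rest of the pathway was read from 4 lists of genes outside the set. The ligands were at the limit of detection. Of 21 interferon genes in the table, 17 had 0 reads in all 12 libraries, which allows up to 0.134 to 0.211 CPM in a library, and none passed the filter on low counts. Ifnb1, the gene of interferon beta, had 0.194 CPM (3 reads) in ICH CKO mouse 1 and 0 in the other 11 libraries. Ifng, Ifnk and Ifnz had at most 4 reads in any library.

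Of 11 genes of the receptors and the JAK-STAT relay, 8 rose after ICH in fl/fl, and 9 of the 10 tested rose in CKO. Ifnar2, a chain of the receptor, rose by 1.65 in fl/fl and 2.15 in CKO mice. Jak1 did not pass in either genotype (-0.27 in fl/fl, 0.23 in CKO).

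Of 17 genes that sense nucleic acid or relay the signal to interferon genes, 15 rose in each genotype. Sting1, the adaptor of the DNA sensor Cgas, rose by 3.01 in fl/fl and 2.70 in CKO mice, and Cgas by 2.82 and 3.45. Tbk1, the kinase downstream of Sting1, did not pass (-0.29 and 0.16). Of 10 genes of feedback and ISG15 ligation, 8 rose and 1 fell in fl/fl, and 7 rose and 1 fell in CKO mice. Socs3, a feedback inhibitor of cytokine receptors, rose by 5.27 and 5.11. Adar, an RNA-editing enzyme, was the gene that fell in each genotype, by 0.99 in fl/fl and by 0.89 in CKO on the log2 scale. Between the genotypes, 0 of the genes of these lists passed the adjusted threshold after ICH or in sham (edgeR). With DESeq2 2 were higher in CKO after ICH, where 578 of all 14600 genes passed in either direction. At an unadjusted p under 0.05, 5 of 37 tested were higher in CKO after ICH and 0 lower (6.09% of all genes were higher), and in sham 8 of 37 were lower and 0 higher (5.77% of all genes were lower).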

How the data were processed

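The authors deposited an estimated count (expected count) per gene for 12 libraries of poly(A)-selected RNA from hematoma-adjacent mouse brain, 1 mouse each, without normalization. The submitters' processing notes name Bowtie2 2.2.8, HISAT2, StringTie 1.3.1 and DESeq2. The genome build and use of strand are not given in the sources used here. An estimator can split reads between similar genes: 7.36% to 8.69% of values per library were not whole, and counts were rounded. Totals of 15650813 to 22406216 set the precision, and limits for a count of 0 (3 reads) cover counting error only.

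Groups came from sample titles. Only the titles of the ICH fl/fl libraries carry a further number at their end, whose meaning the titles do not give. Genes passing filterByExpr (minimum count 10, total 15) were scaled by TMM and tested with a robust quasi-likelihood fit in edgeR 4.0.16 (R 4.3.3), each comparison on its own 6 libraries and the interaction on all 12, with Benjamini-Hochberg adjustment over all genes and a threshold of 0.05. Standard errors were the log2 fold change divided by the root of F. Log2 CPM used a prior count of 2. Alternatives were RLE scaling, total counts, no filter, DESeq2 1.42.0, a replicate block, 1 fit of all libraries, and leaving out libraries. Scripts were tested on simulated data. No 2 libraries were copies of each other.

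The members, the role groups and the pathway and marker lists were chosen with earlier results of these data known. Named genes were, in each role group, the most abundant and the one with the smallest p between genotypes after ICH, in each comparison the 3 with the smallest p in each direction, and members that went against most others. Exon lengths and overlaps came from GENCODE vM21, promoters from RefSeq GRCm38.p6.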

Additional observations from a re-analysis of the deposited data

How the results depend on the processing

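The rise after ICH in fl/fl mice was 38 genes under every alternative, and 38 in CKO mice under all but the 3 that leave out a Sham CKO library, so that leaving out 1 library gave 38 in fl/fl and 0 to 38 in CKO. The genotype counts moved more. After ICH, leaving out 1 library gave 0 genes lower at an adjusted p under 0.05 each time. At an unadjusted p, 1 to 9 were lower and 0 to 4 higher. In those fits 1002 to 2999 of all genes passed the unadjusted threshold in either direction. The count of lower genes was 1 with DESeq2 (adjusted), where 323 of all 14600 genes were lower. With ICH fl/fl mouse 1 and ICH CKO mouse 1 both left out it was 7 (unadjusted), where 553 of all 14720 genes passed in either direction. In sham, leaving out 1 library gave 0 to 23 (adjusted) and 6 to 30 (unadjusted), and DESeq2 gave 3 (adjusted). In the fits without 1 library, 0 to 2892 of all genes passed the adjusted and 738 to 4947 the unadjusted threshold, in either direction. With Sham fl/fl mice 1 and 2 left out, the median log2 difference of the set was -0.11. For the interaction, leaving out 1 library gave 0 to 3 (adjusted) and 2 to 10 (unadjusted), and DESeq2 gave 1 (adjusted). In the fits without 1 library, 0 to 345 of all genes passed the adjusted and 1082 to 3186 the unadjusted threshold, in either direction. With Sham fl/fl mice 1 and 2 left out, the median interaction of the set was -0.15. Leaving out ICH fl/fl mouse 1 and ICH CKO mouse 1 gave 2 larger responses in CKO and 1 smaller (unadjusted). In that fit 1154 of all 15232 genes passed in either direction. The cause was not tested. Leaving out pairs of libraries was chosen after seeing the data.

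Cmpk2 changed sign in sham (-0.0165 to 0.15 without 1 library, -0.0226 without Sham fl/fl mice 1 and 2) and in the interaction (-0.27 to 0.17, and 0.0043), as did Phf11d in the interaction (-0.34 to 0.17). The median CPM over the set in Sham CKO was 2.45, and 2.49 with RLE scaling or 2.51 with total counts, and the mean log2 CPM was 1.12, and 1.16 with total counts, shifts larger than the small spread of these 3 libraries. With a replicate block, 1 gene was lower after ICH at an unadjusted p under 0.05, against 2 without it. Of all 14600 genes 968 passed in either direction, against 1719 without it. In the interaction 2 genes had a larger response in CKO by this rule, against 4 without the block. There 1314 of all 15089 genes passed in either direction, against 1479 without it. The other counts of the set stayed within 1.5 times. Same-numbered libraries deviated together in only some pairs (correlations of -0.58 to 0.31), and not every library correlated best with its own number, so the numbers were not taken as pairs.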
